A study of Homo sapiens with 6 samples.

Results

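The mRNA levels of 7 genes were followed in HCT116 cells, an established human colorectal cancer cell line, given siRNA against the long noncoding RNA LINC01534. The genes encode 6 secreted factors, GDF15, VEGFA, STC2, ADM2, FGF21 and ANGPTL4, and DDIT4, an inhibitor of the growth kinase complex mTORC1. They were chosen by symbol as known targets of the stress transcription factors ATF4 or CHOP, and all 7 were found among the 26255 genes of the files. Of these, 6 reached the mean of 1 FPKM (sequenced fragments scaled to exon length and library size) that was needed for a test, as did 12203 of all genes, and FGF21 did not. The study compared 3 groups of 2 libraries, namely parent HCT116 cells, HCT116 cells given siLINC01534-1 and HCT116 cells given siLINC01534-2. The labels state no other agent, time or dose, and no libraries with a negative control siRNA were analysed here. The effect of a given siRNA and that of giving cells any siRNA therefore cannot be told apart against parent. Every library comes from the same cell line, and nothing in the labels says that replicates were grown apart, so the p-values measure only the spread between these libraries, which may be technical.

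LINC01534 itself had an FPKM of 0.285 and 0.571 in parent cells, 0 and 0.283 under siLINC01534-1, and 0.660 and 0.551 under siLINC01534-2. In steps of the smallest value these are 1 and 2, 0 and 1, and 2 and 2 reads. So few reads cannot show whether LINC01534 was lowered by either siRNA, and the groups are named by their labels throughout. The depth, estimated from the low values and transcript lengths, was between 8530000 and 10400000 reads per library, and from 16513 to 16903 genes had an FPKM above 0. The epithelial markers EPCAM, KRT8, KRT18, CDH1 and CDX2 were expressed, while VIL1 was at or near 0. Of 10 markers of leukocytes, fibroblasts, endothelial cells and hepatocytes, 8 stayed under 1 FPKM in all libraries, 2 of them listed at 0 throughout. Their summed FPKM lay between 6.17 and 7.06 in parent, between 9.13 and 9.39 with siLINC01534-1 and between 10.1 and 11.0 with siLINC01534-2, most of it CD68 and COL1A1. That sum moved with the groups, and its part in the results was not tested.

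When proteins misfold in the endoplasmic reticulum or amino acids run short, eIF2α is phosphorylated, most translation slows, and translation of ATF4 rises. ATF4, often with its own target CHOP (encoded by DDIT3), binds composite CEBP-ATF elements and switches on genes of amino acid supply, of growth control and of secreted signals. GDF15 and FGF21 carry that signal to distant organs, VEGFA and ADM2 to blood vessels, and DDIT4 (REDD1) restrains mTORC1 inside the cell through TSC1 and TSC2.

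To show where such elements lie, the genome around the starts of the members was searched for the composite element TGATGNAA on both strands. Starts were those of the GENCODE annotation on GRCh37 (hg19), the build of the deposited files, and 6 of the 7 members were searched, VEGFA not being among them. Within 2 kb on either side of the start, a match was found for 5 of these members, GDF15, STC2, ADM2, FGF21 and DDIT4, and for 41.4% of 19780 coding genes. DDIT4 held 4 matches upstream of its start, at 1169, 1148, 1004 and 942 bases. STC2 held 4 in all, spread over both sides of its start. Of coding genes 0.465% held 4 or more, but 4 was taken as the highest count among these members. GDF15 and FGF21 held 2 each, and 11.6% of coding genes held 2 or more. ANGPTL4 held 0. The match nearest the start of each gene is shown in 30 bases of GRCh37, 5′ to 3′ on the strand of the gene, with the element in capitals. A match on the opposite strand shows as the reverse complement.
GDF15 (chr19:18497685-18497714, plus strand): ggttctgaatcTGATGAAAtcgcttgtcaa
STC2 (chr5:172754818-172754847, minus strand): tgctagcagggTGATGAAAtggctggggca
ADM2 (chr22:50920295-50920324, plus strand): gccgccctgggTTGCATCAgcctcctctgc
FGF21 (chr19:49258716-49258745, plus strand): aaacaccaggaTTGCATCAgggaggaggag
DDIT4 (chr10:74032725-74032754, plus strand): gtcctcggtccTGATGCAAccgtctggatc
These matches lie in intron 1 of GDF15, in intron 1 of STC2, in the coding part of exon 2 of ADM2, 54 bases upstream of the start of FGF21 and 942 bases upstream of that of DDIT4. A match is a description of letters, and binding was not measured.

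Close to the start the members differed. In the window from 250 bases before to 50 after the start, the element was found in FGF21 among the 6 members searched, and in 2.48% of coding genes. The core of the hypoxia response element, ACGTG, was found there in DDIT4 and ANGPTL4, 121 and 234 bases upstream, and in 23.2% of coding genes. Within 2 kb the core was found in 90.6% of coding genes, so that its presence there separates few genes. It can overlap itself on the opposite strand, as in CACGTG. The ER stress response element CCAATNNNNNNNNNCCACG was found in 0 of the 6 members within 2 kb and in 0.324% of coding genes. The 250 bases upstream of the start are printed for GDF15, STC2 and DDIT4, which stayed past the threshold with both siRNAs under all alternatives, and for FGF21, which hardly had a read but holds the element there. Capitals mark TGATGNAA (in FGF21, on the opposite strand) and ACGTG (in DDIT4).
GDF15 (chr19:18496718-18496967, plus strand): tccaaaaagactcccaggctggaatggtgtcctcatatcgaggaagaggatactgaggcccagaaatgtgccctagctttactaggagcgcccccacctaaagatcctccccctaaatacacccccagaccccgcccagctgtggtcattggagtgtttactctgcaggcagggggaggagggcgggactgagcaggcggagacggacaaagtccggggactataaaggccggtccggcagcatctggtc
STC2 (chr5:172755418-172755667, minus strand): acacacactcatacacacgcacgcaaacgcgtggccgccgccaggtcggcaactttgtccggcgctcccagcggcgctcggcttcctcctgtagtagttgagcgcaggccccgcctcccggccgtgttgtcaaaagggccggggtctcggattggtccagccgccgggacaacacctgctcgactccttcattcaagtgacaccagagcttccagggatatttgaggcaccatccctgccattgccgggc
DDIT4 (chr10:74033428-74033677, plus strand): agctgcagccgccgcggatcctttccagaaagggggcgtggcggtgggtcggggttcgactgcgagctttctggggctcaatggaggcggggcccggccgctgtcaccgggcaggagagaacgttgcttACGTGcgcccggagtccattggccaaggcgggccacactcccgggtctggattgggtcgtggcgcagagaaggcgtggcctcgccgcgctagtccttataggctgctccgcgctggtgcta
FGF21 (chr19:49258531-49258780, plus strand): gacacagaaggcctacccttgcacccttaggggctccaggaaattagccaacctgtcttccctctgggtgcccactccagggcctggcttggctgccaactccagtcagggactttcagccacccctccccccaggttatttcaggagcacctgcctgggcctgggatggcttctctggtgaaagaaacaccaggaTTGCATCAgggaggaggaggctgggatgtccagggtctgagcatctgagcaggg

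**Figure D1:**
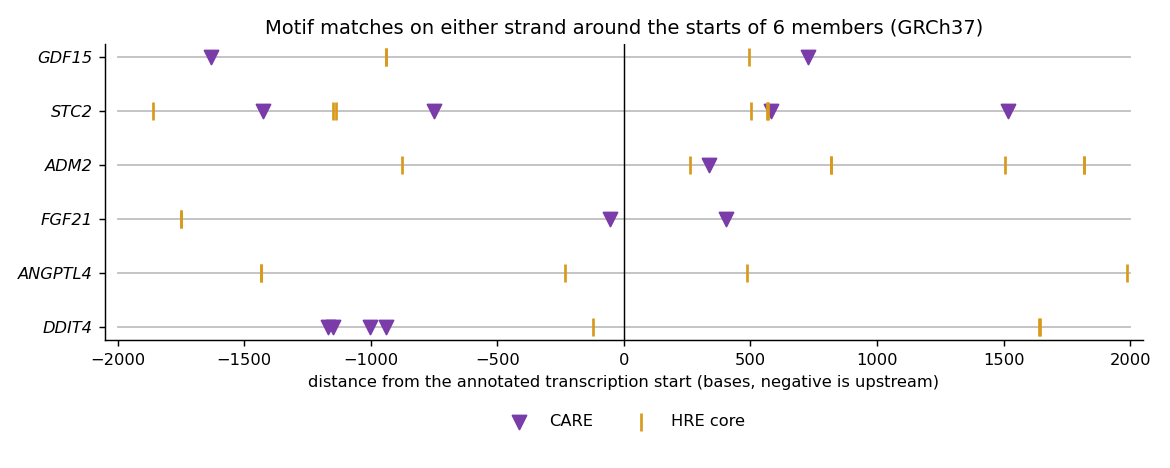
Positions of TGATGNAA (CARE, triangles) and ACGTG (HRE core, bars), on either strand, relative to the annotated start of 6 members (x axis, bases; 1 line per gene). The 4 triangles of DDIT4 lie between 942 and 1169 bases upstream, the triangles of FGF21 lie 54 bases upstream and 405 bases after the start, and ANGPTL4 has 0 triangles.

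The secreted factors of high and middle level were examined first. GDF15, a cytokine of the TGF-β superfamily that lowers food intake through the brainstem receptor GFRAL, was the most abundant member. Its FPKM was 180.1 and 180.4 in parent cells, 309 and 298 under siLINC01534-1, and 319 and 326 under siLINC01534-2. Both siRNA groups lay far above parent and the replicates were close together. The mean rose 1.68-fold with siLINC01534-1 and 1.79-fold with siLINC01534-2. On the log2(FPKM + 1) scale, on which all tests were made with limma, the difference from parent was 0.79 for the mean of both siRNAs (SE 0.028, adjusted p = 0.000113). The siRNAs differed by −0.09 (95% interval −0.17 to −0.01), which did not pass the threshold of 0.05 after adjustment over all genes (adjusted p = 0.083). The gene (chr19:18496968-18499986, plus strand of GRCh37) was already above 95.8% of the tested genes in parent and above 97.9% with siLINC01534-2.

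STC2, a secreted glycoprotein hormone that inhibits the protease PAPP-A, had an FPKM of 18.7 and 18.7 in parent. It was 35.8 and 34.5 with siLINC01534-1, and 33.9 and 36.5 with siLINC01534-2. The siRNA groups overlapped each other and lay apart from parent. STC2 (chr5:172741726-172755417, minus strand) rose 1.88-fold with each siRNA, by 0.87 on the log2 scale in both cases (SE 0.043 and adjusted p = 0.00024 for the mean of both siRNAs). The difference between the siRNAs was −0.00 (95% interval −0.12 to 0.12).

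VEGFA, the main growth factor of blood vessel endothelium, took another course. Its FPKM was 19.5 and 20.5 in parent cells and 33.9 and 32.3 under siLINC01534-1. With siLINC01534-2 it was 21.4 and 20.5, next to the parent values. VEGFA (chr6:43737948-43754224, plus strand) rose 1.65-fold with siLINC01534-1, by 0.70 on the log2 scale (adjusted p = 0.000355). With siLINC01534-2 the difference was 0.07 (95% interval −0.06 to 0.19, adjusted p = 0.39). The siRNAs differed by 0.63 (adjusted p = 0.000646 from limma). The mean of both siRNAs also passed the threshold at 0.38 (SE 0.044, adjusted p = 0.00236), but siLINC01534-2 alone did not pass, and the call on the mean was lost when the 4 siRNA libraries were taken as 1 group (adjusted p = 0.384). The transcript isoforms of VEGFA, 26 of them in the annotation, share 1 value in the files and could not be separated.

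**Figure D2:**
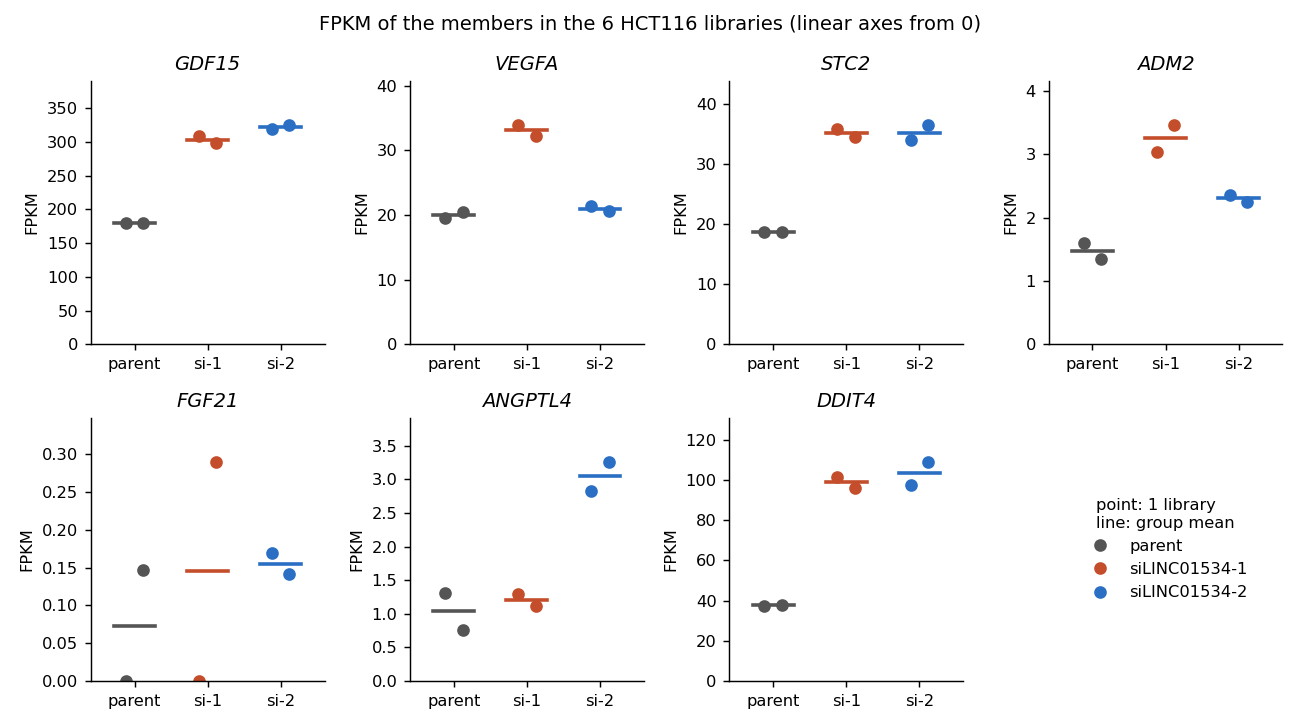
FPKM of each member (y axes, linear from 0) in the 6 libraries, 2 per group (x axis; si-1 and si-2 stand for siLINC01534-1 and siLINC01534-2), with points for libraries and lines for group means. GDF15, STC2 and DDIT4 lie higher in both siRNA groups, VEGFA in siLINC01534-1 at 33.9 and 32.3, and ANGPTL4 in siLINC01534-2 at 2.83 and 3.27.

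The other secreted members were near the lower end of expression. ADM2 (intermedin), a vasodilator peptide of the calcitonin family, had an FPKM of 1.60 and 1.35 in parent cells, 3.04 and 3.47 under siLINC01534-1, and 2.37 and 2.25 under siLINC01534-2. The 3 groups did not overlap, with siLINC01534-1 highest. ADM2 (chr22:50919972-50924866, plus strand) rose 2.21-fold with siLINC01534-1 (log2 difference 0.78, adjusted p = 0.00275) and 1.57-fold with siLINC01534-2 (0.42, adjusted p = 0.0415). The siRNAs differed by 0.36 (adjusted p = 0.0405). The last 2 calls were near the threshold. The call with siLINC01534-2 was lost when any single library was left out, with adjusted p-values up to 0.149, with a replicate block in the fit (0.079) and with no filter on low values (0.0682). The difference between the siRNAs was lost under the block as well (0.0727), with no filter (0.0629), with a pseudocount of 0.1 (0.0505) and without any 1 of the 4 siRNA libraries, the largest adjusted p being 0.149 without the second siLINC01534-1 library. About 54 to 140 reads per library lay behind these values.

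ANGPTL4, a secreted inhibitor of lipoprotein lipase and a classical target of the PPAR factors, had an FPKM of 1.31 and 0.759 in parent cells and 1.29 and 1.12 under siLINC01534-1. These 2 groups overlapped. With siLINC01534-2 it was 2.83 and 3.27, above all other libraries. ANGPTL4 (chr19:8429039-8439254, plus strand) rose 2.95-fold with siLINC01534-2 (log2 difference 1.00, adjusted p = 0.0129), while the difference with siLINC01534-1 was 0.13 (95% interval −0.28 to 0.53, adjusted p = 0.557). The siRNAs differed by −0.88 (adjusted p = 0.0096). Only 13 to 57 reads per library were estimated, and single libraries decided the calls. Without the first or the second siLINC01534-2 library the call of that siRNA against parent was lost (adjusted p = 0.0502 and 0.0718). The difference between the siRNAs was lost without the second siLINC01534-1 library (0.0522) and without the second siLINC01534-2 library (0.0526). The mean of both siRNAs, at 0.57 (SE 0.141, adjusted p = 0.0281), lost its call without any library other than the first parent library. Without the second parent library, the lowest of the parent values, it was 0.37 (adjusted p = 0.114).

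FGF21, a liver-derived hormone of fasting and protein restriction, was hardly detected. Its FPKM was 0 and 0.146 in parent cells, 0 and 0.290 under siLINC01534-1, and 0.169 and 0.141 under siLINC01534-2. In steps of the smallest value these are 0 and 1, 0 and 2, and 1 and 1 reads. FGF21 (chr19:49258781-49261587, plus strand) was below the filter in every group and no fold is given. An exact permutation test of the 4 siRNA libraries against the 2 parent libraries, two-sided, gave p = 0.667. The smallest p this design allows is 0.133, so the test could not have passed 0.05, and no statement on a difference is made.

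DDIT4, the mTORC1 inhibitor, showed the largest increase of the 6 tested members for the mean of both siRNAs on the log2 scale. Its FPKM was 37.5 and 38.0 in parent cells, 102 and 96.0 under siLINC01534-1, and 97.6 and 109 under siLINC01534-2. The siRNA groups overlapped and lay far above parent. DDIT4 (chr10:74033678-74035794, plus strand) rose 2.62-fold with siLINC01534-1 and 2.74-fold with siLINC01534-2, and its log2 difference was 1.40 for the mean of both siRNAs (SE 0.054, adjusted p = 0.000127). Between the siRNAs the difference was −0.06 (95% interval −0.22 to 0.09).

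Of the 6 tested members, 6 were higher when the mean of both siRNAs was set against parent (17.1% of all tested genes were), and 0 were lower (20.1% were). With siLINC01534-1, 5 members were higher (21.8% of tested genes) and 0 lower (24.5%), ANGPTL4 not passing the threshold. With siLINC01534-2, 5 members were higher (11.1% of tested genes) and 0 lower (11.8%), VEGFA not passing it. Between the siRNAs, VEGFA and ADM2 were higher with siLINC01534-1 (19.5% of tested genes were) and ANGPTL4 was lower (22.3% were). In 5 members, GDF15, VEGFA, STC2, ADM2 and DDIT4, all 4 siRNA libraries were above both parent libraries, as in 19.0% of tested genes, although for VEGFA the second siLINC01534-2 library exceeded the second parent library by less than the parent replicates differed. For these 5, the exact permutation test gave p = 0.133, the smallest that 2 libraries against 4 allow, and for ANGPTL4 it gave p = 0.4. Taking the 4 siRNA libraries as 1 group left 3 members past the threshold, GDF15, STC2 and DDIT4. The share of all tested genes past the threshold in that fit is not given, so this count has no background to be set against. The comparisons of each siRNA with parent share the parent libraries and are not independent of each other.

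**Figure D3:**
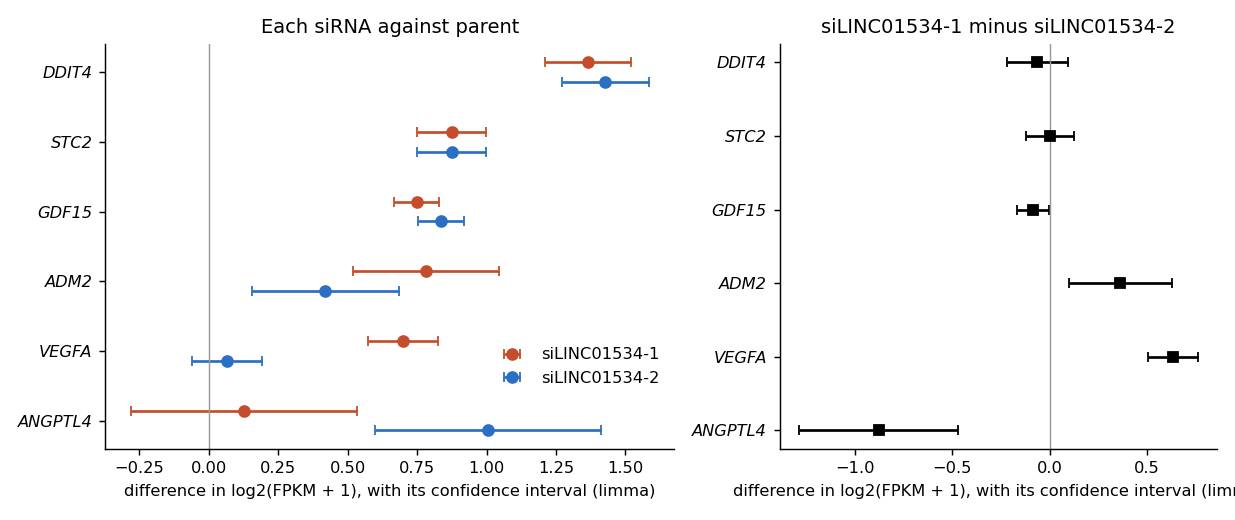
Difference in log2(FPKM + 1) with its 95% interval from limma for the 6 tested members (y axis), for each siRNA against parent on the left and for siLINC01534-1 minus siLINC01534-2 on the right. DDIT4, STC2 and GDF15 lie at nearly the same place with both siRNAs, VEGFA and ADM2 lie further right with siLINC01534-1, and ANGPTL4 with siLINC01534-2.

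FPKM is scaled by length, so the members could be ordered by level within a group. The spread between libraries does not measure how well values of different genes compare. That limits the order where means were close, as for VEGFA and STC2 at 20.0 and 18.7 FPKM in parent. In parent the order was GDF15, DDIT4, VEGFA, STC2, ADM2, ANGPTL4 and FGF21, and no neighbours in it overlapped between their 2 libraries. With siLINC01534-1 STC2 came above VEGFA. The mean FPKM was 35.2 for STC2 and 33.1 for VEGFA in that group, with SDs of 0.87 and 1.18 (n = 2 each). With siLINC01534-2 STC2 was again above VEGFA, at 35.2 against 21.0 FPKM, and ANGPTL4 came above ADM2, at 3.05 against 2.31 FPKM. DDIT4 moved from above 78.8% of the tested genes in parent to above 92.7% and 92.6% with the siRNAs.

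The 2 regulators that define the members were set beside them. ATF4 had an FPKM of 349.7 and 350.0 in parent cells, 567 and 574 under siLINC01534-1, and 386 and 378 under siLINC01534-2. It was higher with both siRNAs and by 0.58 on the log2 scale more with siLINC01534-1 than with siLINC01534-2 (adjusted p = 0.000211 from limma). That is the same side as VEGFA and ADM2 and the opposite side to ANGPTL4 (−0.88). DDIT3, which encodes CHOP, had an FPKM of 17.5 and 19.5 in parent cells, 76.7 and 73.5 under siLINC01534-1, and 78.5 and 90.2 under siLINC01534-2. The siRNAs differed in DDIT3 by −0.16 (95% interval −0.37 to 0.04, adjusted p = 0.171). GDF15, STC2 and DDIT4 were likewise not past the threshold for that difference, although the interval of GDF15 ran from −0.17 to −0.01.

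Family members of the secreted factors were counted next. Of 16, 6 reached the filter, ANGPTL6 only through the parent libraries. ANGPTL6 is therefore left out of the count. With both siRNAs averaged 2 of the others, FGF19 and ADM, were higher, 2, PGF and GDF11, were lower, and VEGFB did not pass. Of all tested genes 17.1% were higher and 20.1% were lower. The median log2 difference without ANGPTL6 was that of GDF11, −0.37, against −0.01 for all tested genes. When short RNA genes were left out of the fit, all 6 passed, with ANGPTL6 in the count. Adjusted p-values from limma were lower for other genes too in that fit, as for DDIT4 (8.2e-07 against 0.000127). The share of all genes that passed there is not given, so that count is not read as a result about the family. FGF19, an intestinal hormone of the FGF21 subfamily, had an FPKM of 14.8 and 14.2 in parent cells, 36.2 and 34.6 under siLINC01534-1, and 30.3 and 32.9 under siLINC01534-2. It thus rose with both siRNAs, by 1.23 and 1.07 on the log2 scale (adjusted p = 0.000104 and 0.00058). ADM, the vasodilator adrenomedullin and the closest relative of ADM2, rose by 0.77 with siLINC01534-1 and by 0.40 with siLINC01534-2 (adjusted p = 0.00117 and 0.0232), and the siRNAs differed by 0.37 (0.0155), the direction seen in ADM2. PGF, a VEGF family ligand of FLT1, had an FPKM of 3.67 and 4.31 in parent cells, 1.15 and 1.50 under siLINC01534-1, and 3.29 and 4.60 under siLINC01534-2. It fell with siLINC01534-1 by 1.10 on the log2 scale (adjusted p = 0.00377), opposite to VEGFA, and not detectably with siLINC01534-2 (−0.02, adjusted p = 0.935). VEGFB, another VEGF family ligand of FLT1, fell with siLINC01534-1 by 0.59 (adjusted p = 0.0263) and was at −0.26 with siLINC01534-2 (adjusted p = 0.282). GDF11 was at −0.37 for the mean of both siRNAs and passed there, and it passed with neither siRNA alone (adjusted p = 0.0581 and 0.0944). ANGPTL6 had a mean FPKM of 1.47 in parent cells, 0.766 with siLINC01534-1 and 0.961 with siLINC01534-2. Only the parent mean lay above the filter, so nothing is drawn from its test.

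Receptors, coreceptors and targets of the secreted members were mostly low. Of 16, 6 averaged at least 1 FPKM and could be tested. RET, the signalling partner of GFRAL, was below that mean but was detected in every library, at 0.626 to 0.881 FPKM, as was the VEGF coreceptor NRP2. The highest FPKM in any library was 0.0561 for GFRAL, the receptor of GDF15, and 0.0672 for the VEGF receptor KDR. It was 0.171 for CALCRL, the calcitonin receptor-like receptor that binds ADM2, and 0.186 for the FGF21 coreceptor KLB. NRP1, a coreceptor of VEGFA, had an FPKM of 0.776 and 0.861 in parent cells, 0.644 and 0.647 under siLINC01534-1, and 2.67 and 2.52 under siLINC01534-2. It reached the filter only through the siLINC01534-2 libraries, so no test is given for it. Of the other 5 tested genes, 1 was higher, 3 were lower and 1 did not pass with both siRNAs averaged, with a median of −0.23 (17.1% of all tested genes were higher and 20.1% lower). FGFR3, a receptor of the FGF family, fell by 0.90 with siLINC01534-1 and by 0.30 with siLINC01534-2 (adjusted p = 0.000317 and 0.0237). RAMP1, a partner of the calcitonin receptor-like receptor, had an FPKM of 24.0 and 27.7 in parent cells and 16.4 and 16.2 under siLINC01534-1, where it fell by 0.63 (adjusted p = 0.00243). With siLINC01534-2 it was 25.8 and 23.3, overlapping parent. FGFR2 was lower with siLINC01534-1 (−0.35, adjusted p = 0.0104), FGFR1 was higher with it (0.20, adjusted p = 0.0192), and FGFR4 passed with neither siRNA.

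**Figure D4:**
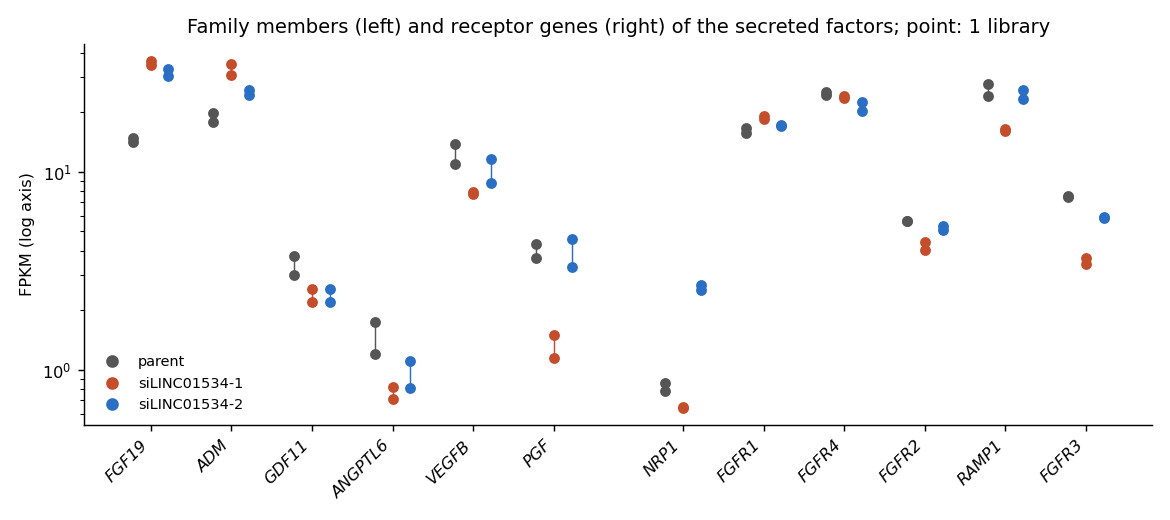
FPKM on a log axis of the 6 tested family members and the 6 tested receptor genes of the secreted factors (x axis), with a point for each library, a line joining the 2 libraries of a group and colours for groups. FGF19 lies higher in both siRNA groups, PGF and RAMP1 lie lower in siLINC01534-1, and NRP1 lies higher in siLINC01534-2.

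Other mTORC1 inhibitors were compared with DDIT4. Of 11 tested genes that restrain mTORC1, other than DDIT4, 2 were higher, 2 were lower and 7 did not pass for the mean of both siRNAs, with a median log2 difference of 0.06. These shares are near those of all tested genes, 17.1% higher and 20.1% lower. SESN2, a leucine sensor and ATF4 target, had an FPKM of 9.96 and 9.67 in parent cells, 27.9 and 30.0 under siLINC01534-1, and 22.7 and 25.8 under siLINC01534-2. Its log2 differences of 1.47 and 1.22 (adjusted p = 0.000135 and 0.000903) bracket that of DDIT4 for the mean of both siRNAs. SESN1, a related sestrin, was higher by 0.34 with siLINC01534-1 (adjusted p = 0.00834) and at 0.22 with siLINC01534-2 (adjusted p = 0.0589). The GATOR1 subunits NPRL3 and NPRL2 had differences of −0.40 and −0.26 for the mean of both siRNAs. NPRL3 fell with each siRNA, and NPRL2 passed with siLINC01534-2 (−0.34, adjusted p = 0.0244) and not with siLINC01534-1 (−0.17, adjusted p = 0.0975).

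Among 19 genes of the mTORC1 complex, its activators and substrates, 3 were higher, 6 were lower and 10 did not pass, with a median of 0.02, beside 17.1% and 20.1% of all tested genes. ULK1, the autophagy kinase that mTORC1 inhibits, rose by 0.76 with siLINC01534-1 and by 0.41 with siLINC01534-2 (adjusted p = 0.00225 and 0.0369). MLST8, an mTORC1 subunit, fell by 0.43 and by 0.32 (adjusted p = 0.00122 and 0.00894). LAMTOR3, of the lysosomal Ragulator complex, had an FPKM of 5.52 and 5.64 in parent cells, 2.32 and 2.20 under siLINC01534-1, and 6.25 and 6.77 under siLINC01534-2. It fell with siLINC01534-1 (−1.01, adjusted p = 0.00034) and stood at 0.19 with siLINC01534-2 (adjusted p = 0.117), the siRNAs differing by −1.20 (adjusted p = 0.000301). RRAGC, a Rag GTPase of that pathway, was higher with siLINC01534-1 (0.40, adjusted p = 0.00315) and at 0.19 with siLINC01534-2 (adjusted p = 0.0602).

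Genes outside the members were then counted for the programs known to act on them. Of 23 tested ATF4 or CHOP targets, 19 were higher, 2 were lower and 2 did not pass for the mean of both siRNAs, with a median log2 difference of 0.71 (all tested genes, 17.1% higher and 20.1% lower, median −0.01). The median was 0.91 with siLINC01534-1 and 0.42 with siLINC01534-2. DDIT3 had the largest difference (2.05), followed by ATF3, a stress-induced repressor (2.04). ERO1A, the ER oxidase, had an FPKM of 23.1 and 20.8 in parent cells and 8.55 and 9.72 under siLINC01534-1, a fall of 1.18 on the log2 scale (adjusted p = 0.000268). With siLINC01534-2 it was 23.7 and 23.5 (0.10, adjusted p = 0.385). SHMT2, a mitochondrial one-carbon enzyme, fell with siLINC01534-2 by 0.20 (adjusted p = 0.0145) and was at −0.02 with siLINC01534-1.

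Hypoxia-inducible factors act on VEGFA, ANGPTL4 and DDIT4. Of 16 tested targets of these factors, 8 were higher, 2 were lower and 6 did not pass, with a median of 0.26, beside the 17.1% and 20.1% of all tested genes. BHLHE40, a circadian repressor, rose by 0.88 with siLINC01534-1 and by 1.53 with siLINC01534-2 (adjusted p = 0.00064 and 0.000547), and the siRNAs differed in the direction seen in ANGPTL4 (−0.66, adjusted p = 0.00208). NDRG1, a stress-responsive growth suppressor, rose by 0.92 and by 1.01. LDHA, lactate dehydrogenase, had an FPKM of 632 and 642 in parent cells, 449.9 and 448 under siLINC01534-1, and 540.1 and 527 under siLINC01534-2, and it fell by 0.50 and by 0.26 (adjusted p = 0.000218 and 0.00576). BNIP3, a mitophagy receptor, fell with siLINC01534-1 by 0.45 (adjusted p = 0.00235) and was at −0.10 with siLINC01534-2 (adjusted p = 0.282).

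PPAR factors act on ANGPTL4 and FGF21. Of 8 tested PPAR targets, 3 were higher, 2 were lower and 3 did not pass, with a median of −0.06, beside the 17.1% and 20.1% of all tested genes. ACADVL, a fatty acid oxidation enzyme, rose by 0.94 with siLINC01534-1 and by 0.32 with siLINC01534-2 (adjusted p = 6.18e-05 and 0.00419), more with siLINC01534-1 (0.62, adjusted p = 0.000256), the reverse of ANGPTL4. SLC25A20, the carnitine carrier of mitochondria, was higher with siLINC01534-1 (0.50, adjusted p = 0.00631). CPT1A, which forms acylcarnitine, and PLIN2, a lipid droplet protein, fell with siLINC01534-1 by 0.42 and by 0.59 (adjusted p = 0.00224 and 0.00719), and both missed the threshold with siLINC01534-2.

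GDF15 is also a target of p53, which is wild type in HCT116. Of 19 tested p53 targets, 15 were higher, 0 were lower and 4 did not pass, with a median of 0.55, beside the 17.1% and 20.1% of all tested genes. SESN2 and GADD45A, a growth arrest gene, had the largest differences. Both are also known to respond to ATF4, and so do not separate the programs. The lists share genes and are not separate sets. SESN2 and TNFRSF10B were also counted among the ATF4 or CHOP targets, and SESN1 and SESN2 among the mTORC1 inhibitors. ADM was counted both among the targets of hypoxia-inducible factors and among the family members. The FPKM of GADD45A was 32.1 and 32.5 in parent cells, 81.8 and 86.5 under siLINC01534-1, and 64.3 and 71.1 under siLINC01534-2. AEN, an apoptosis nuclease, was lower with siLINC01534-1 (−0.31, adjusted p = 0.00637) and at 0.17 with siLINC01534-2 (adjusted p = 0.0693). FDXR, a mitochondrial reductase, was at −0.01 for the mean of both siRNAs and did not pass.

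**Figure D5:**
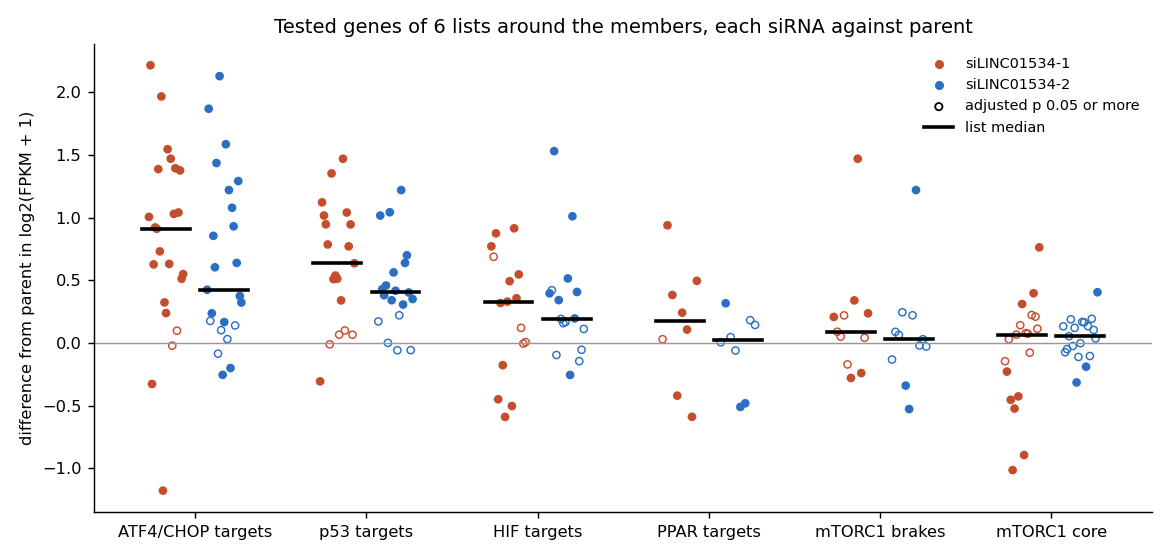
Difference from parent in log2(FPKM + 1) of every tested gene of 6 lists outside the members (x axis), for siLINC01534-1 and siLINC01534-2, with filled points past the adjusted p threshold of 0.05 and black lines at list medians. The medians of the ATF4 or CHOP targets are 0.91 and 0.42, those of the mTORC1 inhibitors 0.09 and 0.03.

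The genes whose pattern over the 6 libraries was most like that of each tested member were named by Pearson's r of log2(FPKM + 1), among 4761 genes whose values spanned at least 0.5. These values share their libraries and mostly restate the group means, and they are given as a description. The 3 genes nearest to GDF15 were SAT1, NDRG1 and CXCL8 (r = 0.9992, 0.9986 and 0.9982). HSPA5, DDIT4 and LAMB3 were nearest to STC2 (0.9995, 0.9992 and 0.9992), and SLC3A2, STC2 and FOS to DDIT4 (0.9993, 0.9992 and 0.9992), so that STC2 and DDIT4 named each other. VEGFA was followed by GAA, PSMD6 and SIAH2 (0.9985, 0.9982 and 0.9972), all 3 close to parent with siLINC01534-2. PSMD6, a proteasome subunit, had an FPKM of 94.1 and 95.2 in parent cells, 136 and 133 under siLINC01534-1, and 98.1 and 95.0 under siLINC01534-2. ADM2 was nearest to PCNXL2, MTF2 and ZMAT3 (0.9999, 0.9970 and 0.9966), and ANGPTL4 to FZD6, EXPH5 and FOSL2 (0.9929, 0.9923 and 0.9846). An r above 0.95 was reached by 185 genes for GDF15, 303 for VEGFA, 210 for STC2, 218 for ADM2 and 194 for DDIT4, and by 29 for ANGPTL4. The values of ANGPTL4 rest on 13 to 57 estimated reads per library. Whether its lower number comes from its pattern or from so few reads was not tested.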

How the data were processed

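Poly(A) RNA of HCT116 cells was sequenced by the authors on strand-specific libraries in 75-nt single-end reads. Per the labels, the submitters' processing notes name TopHat2 2.0.13, Bowtie2 2.2.3, SAMtools 0.1.19, Cufflinks 2.2.1 and hg19. The deposited values are FPKM from Cuffnorm, and which annotation the symbols come from is not given in the sources used here. FPKM carry no read counts, so reads were estimated from transcript length and the steps between low values, and such numbers cover counting error only. The methods state 3 cultures per group and another RNA kit than the labels, which give 2 libraries per group. No library was left out.

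log2(FPKM + 1) of the 12203 genes that averaged 1 FPKM or more was fitted with limma 3.58.1 in R 4.3.3 (1 mean per group, eBayes with a trend, two-sided, Benjamini-Hochberg adjustment over all tested genes, threshold 0.05). The pseudocount understates changes of low genes. Fold values are ratios of mean FPKM. The members, gene lists and tests were chosen with earlier results of these data known. Named genes are the members, LINC01534, the 2 highest and 2 lowest differences of each regulatory list, every receptor or family gene that averaged 1 FPKM or more, and the 3 genes most correlated with each tested member. ATF4, and the receptor genes GFRAL, RET, KDR, NRP2, CALCRL and KLB, were named outside that rule after their values were seen. Motifs were searched in GRCh37 with GENCODE starts in Python 3.11.15. The code was tested on simulated data.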

Additional observations from a re-analysis of the deposited data

Results flagged for a closer look

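The siRNAs differed from each other in 3 members by a limma test of the difference itself, siLINC01534-1 minus siLINC01534-2 in log2(FPKM + 1). The difference was 0.63 for VEGFA (adjusted p = 0.000646), 0.36 for ADM2 (adjusted p = 0.0405) and −0.88 for ANGPTL4 (adjusted p = 0.0096). VEGFA kept the call under every alternative tried for it, with adjusted p-values from 4.74e-05 to 0.00835. The adjusted p-values of ADM2 ran from 0.0216 to 0.149 and those of ANGPTL4 from 0.00211 to 0.0526. LINC01534 had 0 to 2 reads per library, too few to show whether it was lowered, and its part in these differences was not tested.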

How the results depend on the processing

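GDF15, STC2 and DDIT4 stayed past the threshold against parent, with each siRNA and with their mean, under every alternative run. Of the single-gene values, 301 kept their direction and their side of the threshold, 27 lost the threshold and 6 turned direction. Those that turned were not past the threshold. They were ANGPTL4 with siLINC01534-1 against parent (−0.07 without the second parent library, otherwise up to 0.324), DDIT4 between the siRNAs (0.017 without the second siLINC01534-2 library, −0.143 without the first) and STC2 between the siRNAs (0.003 with median-of-ratios scaling, 0.04 with upper-quartile scaling, 0.024 without the second siLINC01534-1 library, and 0.051 and −0.052 without the second and the first siLINC01534-2 library). With both siRNAs as 1 group, so that their difference counts as error, 3 members passed, and 11 of the ATF4 or CHOP targets, 2 HIF targets, 1 mTORC1 brake, 0 of the mTORC1 core, 0 receptors, 1 family member, 0 PPAR targets and 6 p53 targets. The shares of all tested genes past the threshold are given for the main fit only. The counts of members and list genes under the alternatives in this section therefore have no background share. They show only how the calls depend on the processing. Receptor counts in this section include NRP1, and family counts ANGPTL6, wherever these genes reached the filter. NRP1 reached the filter only through siLINC01534-2, and ANGPTL6 only through parent, so nothing is drawn from the counts that include them. Without NRP1, 1 receptor was higher, 3 were lower and 1 did not pass for the mean of both siRNAs in the main fit. The receptor counts under the alternatives are therefore not of the same set as the 5 receptors counted without NRP1. At a mean FPKM of at least 5, which leaves 4 members to test, 3 passed with siLINC01534-2, 1 between the siRNAs, and 3 receptors. With no filter on low values 3 receptors and 2 family members passed, ADM2 lost its calls with siLINC01534-2 and between the siRNAs (adjusted p = 0.0682 and 0.0629), and FGF21 had an adjusted p of 0.644 for the mean of both siRNAs.

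Leaving out 1 library at a time, the members past the threshold numbered 5 to 6 for the mean of both siRNAs and 5 with siLINC01534-1. They numbered 3 to 4 with siLINC01534-2 (3 without either of its own libraries) and 1 to 3 between the siRNAs (1 without the second library of either siRNA). The lists ranged from 18 to 19 for ATF4 or CHOP targets, 6 to 10 for HIF targets (6 without the first parent library), 2 to 4 for mTORC1 brakes (2 without either parent library), 5 to 8 for the mTORC1 core (5 without the second parent library) and 13 to 15 for p53 targets. Receptors ranged from 1 to 4 (1 without the second and 2 without the first parent library, 3 without the first siLINC01534-1 or either siLINC01534-2 library), family members from 2 to 4 (2 without either parent or the first siLINC01534-1 library) and PPAR targets from 2 to 5 (2 without the second parent library, 3 without the first parent or the first siLINC01534-1 library). A group left with 1 library was assumed to vary like the others.

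Deviations of same-numbered libraries had correlations of 0.11, 0.03 and −0.05, so the numbers were not taken to pair the libraries. With the replicate block in the fit, 6 members passed for the mean of both siRNAs, 5 with siLINC01534-1, 4 with siLINC01534-2 and 2 between the siRNAs, ADM2 dropping out of the last 2, and 3 receptors passed. The few reads of ADM2, ANGPTL4 and FGF21 limit what can be said of them.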
